A study of Mus musculus with 18 samples.

Results

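Expression of 8 genes encoding transcription factors of the liver lineage, Hnf4a, Foxa1, Foxa2, Foxa3, Cebpa, Cebpb, Hhex and Tbx3, was followed in mouse hepatoma cells. They were chosen by name, through probe sets that the platform annotation pairs with that 1 symbol, and comprise 8 of 18193 such genes and 16 of 45037 probe sets tested. Gene expression had been measured on 18 Affymetrix arrays in 6 groups of 3 biological replicates. The groups were wild-type Hepa-1c1c7 cells, a line from a mouse liver tumor, and their derivative c35, each with the solvent DMSO alone, with the dioxin TCDD at 5 nM in DMSO, or with benzo[a]pyrene (BaP) at 5 µM in DMSO, for 8 hr. TCDD and BaP are ligands of the aryl hydrocarbon receptor (AHR), a ligand-activated transcription factor. In c35 cells a missense mutation of the receptor blocks its binding to DNA but leaves ligand binding. The labels describe both lines as male, of C57BL/6 origin, and give the TCDD dose only for c35, so that for the wild-type cells it comes from the study's methods. Each genotype is 1 cell line, so that the receptor mutation and any other difference between the lines cannot be told apart.

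These factors build and maintain the hepatocyte. The forkhead proteins FOXA1, FOXA2 and FOXA3 open chromatin at liver genes, HHEX and TBX3 act as the liver bud grows out of the foregut, and the nuclear receptor HNF4A and the leucine zipper proteins C/EBPα (Cebpa) and C/EBPβ (Cebpb) then drive the genes of the differentiated liver cell. C/EBPβ is also the factor of this group best known for responding to hormones, inflammation and stress.

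Values are log2 signals, in which 1 unit is a doubling, and the probe set with the highest mean stands for a gene. A probe set was called where limma's moderated test gave an adjusted p below 0.05 and the change was above 1.5-fold, or 0.585 on the log2 scale. Array medians lay between 5.62 and 5.69, and correlations between arrays were 0.991 to 0.997 within the wild-type line, 0.995 to 0.998 within c35 and 0.969 to 0.980 between the lines. Ligand exposure was visible in Cyp1a1, the classical AHR target, whose log2 signal rose by 3.28 with TCDD and 3.69 with BaP in wild-type cells (adjusted p = 0.0217 and 0.00186, limma) and was not called in c35. Ahr, which encodes the receptor, was called higher in the wild-type line by 1.01 with DMSO, 1.10 with TCDD and 0.87 with BaP. The receptor mutation and this difference in Ahr signal cannot be told apart.

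The 8 factors fell into 3 kinds in these cells. Tbx3 and Hhex were higher in the wild-type line under every treatment. Cebpb was not called between the naive lines and rose with BaP in wild-type cells and not in c35, a difference in response that itself passed the test. The BaP response of Tbx3 differed between the lines too, just past the 1.5-fold minimum and towards lower values in the wild-type line. Hnf4a, Foxa1, Foxa2, Foxa3 and Cebpa passed no call in any of the 10 comparisons.

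**Figure D1:**
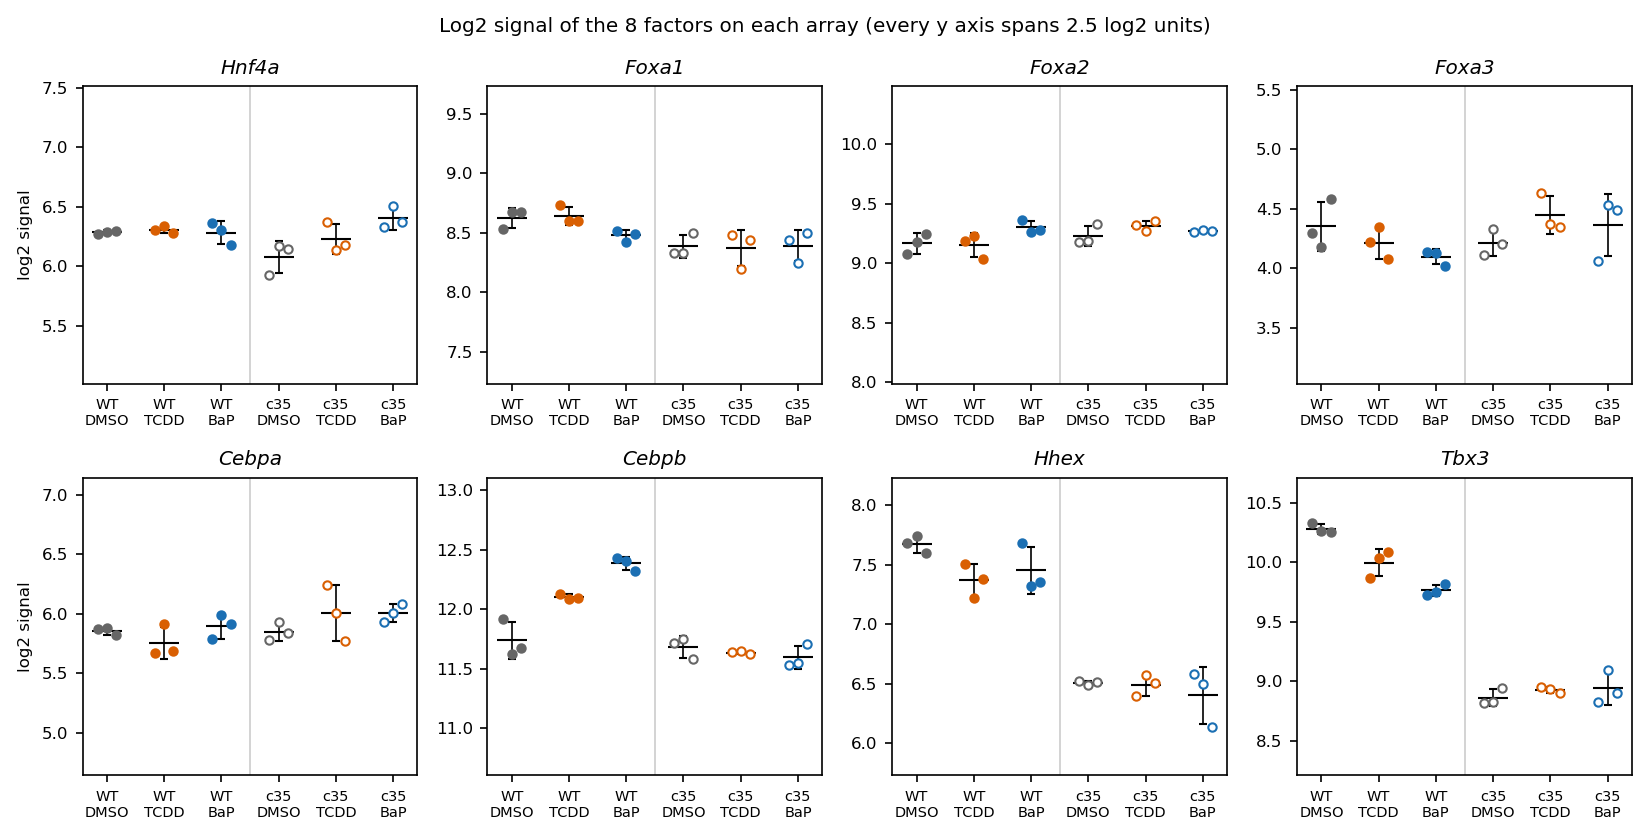
Log2 signal of the 8 factors, 1 panel per gene, for 3 arrays in each of 6 groups (filled points, wild-type; open points, c35), with the group mean (horizontal line) and SD (error bar). Hhex and Tbx3 lay higher on all 9 wild-type arrays than on any c35 array, and Cebpb was highest on the 3 wild-type arrays with BaP.

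In naive cells, given DMSO alone, 2 of the 8 factors were called higher in the wild-type line and 0 lower, against 7.52% of all genes called higher and 6.52% lower. With TCDD, again 2 were higher and 0 lower, against 8.65% and 6.32% of all genes, and with BaP 3 were higher and 0 lower, against 8.98% and 6.83%. These 3 comparisons use separate arrays. The median difference of the 8 factors was 0.17 with DMSO, beside -0.03 for all genes, and 0.17 and 0.06 with TCDD and BaP, beside -0.03 for all genes in each.

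Tbx3 encodes a T-box repressor that is required for the liver bud to expand and that restrains cell senescence. Its log2 signal in wild-type cells was 10.33, 10.26 and 10.25 with DMSO, 9.87, 10.03 and 10.09 with TCDD, and 9.73, 9.75 and 9.82 with BaP. In c35 cells it was 8.82, 8.82 and 8.95 with DMSO, 8.95, 8.93 and 8.90 with TCDD, and 8.82, 9.09 and 8.90 with BaP. All 9 wild-type arrays lay above all 9 c35 arrays. In such bulk cultures fewer expressing cells and less RNA per cell cannot be told apart. The line difference was 1.42 ± 0.07 (SE, n = 3 per group), or 2.67-fold, in naive cells (adjusted p = 5.84e-12, limma). It was 1.07 ± 0.07 with TCDD (adjusted p = 3.69e-10) and 0.82 ± 0.07 with BaP (adjusted p = 1.45e-08).

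In order of their means, the 6 groups of Tbx3 ran from wild-type DMSO at 10.28 ± 0.04 (SD, n = 3) through wild-type TCDD at 9.995 ± 0.12 (SD, n = 3) to wild-type BaP at 9.76 ± 0.05 (SD, n = 3), and then, after the gap between the lines, the 3 c35 groups between 8.86 and 8.94. The neighbouring steps within the wild-type line did not pass the test, with adjusted p = 0.0846 for TCDD against DMSO and 0.139 for TCDD against BaP (limma). BaP against DMSO gave -0.52 ± 0.07, with no overlap between the groups. That difference had an adjusted p of 0.000169 and stayed under the 1.5-fold minimum, so it was not called. In c35 the same comparison gave 0.08 ± 0.07 (adjusted p = 0.9998, limma).

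Of the 5 probe sets of Tbx3, the 3 brightest carried the line difference. Probe set 1437479_x_at, whose suffix marks possible cross-hybridization, read 10.45, 10.32 and 10.37 in naive wild-type cells and 7.94, 8.08 and 8.11 in naive c35 cells, a difference of 2.34 ± 0.09 (adjusted p = 3.06e-14, limma). Probe set 1445757_at read 8.93, 8.57 and 8.78 against 7.03, 6.94 and 7.17, a difference of 1.71 ± 0.14 (adjusted p = 4.09e-09). The remaining probe sets, 1439567_at and 1444594_at, had group means between 4.09 and 5.57, below the array medians, and naive differences of 0.35 and 0.37 that were not called. With BaP in wild-type cells the 3 brightest probe sets moved by -0.52, -0.58 and -0.51, each with an adjusted p below 0.05 and each short of 1.5-fold.

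**Figure D2:**
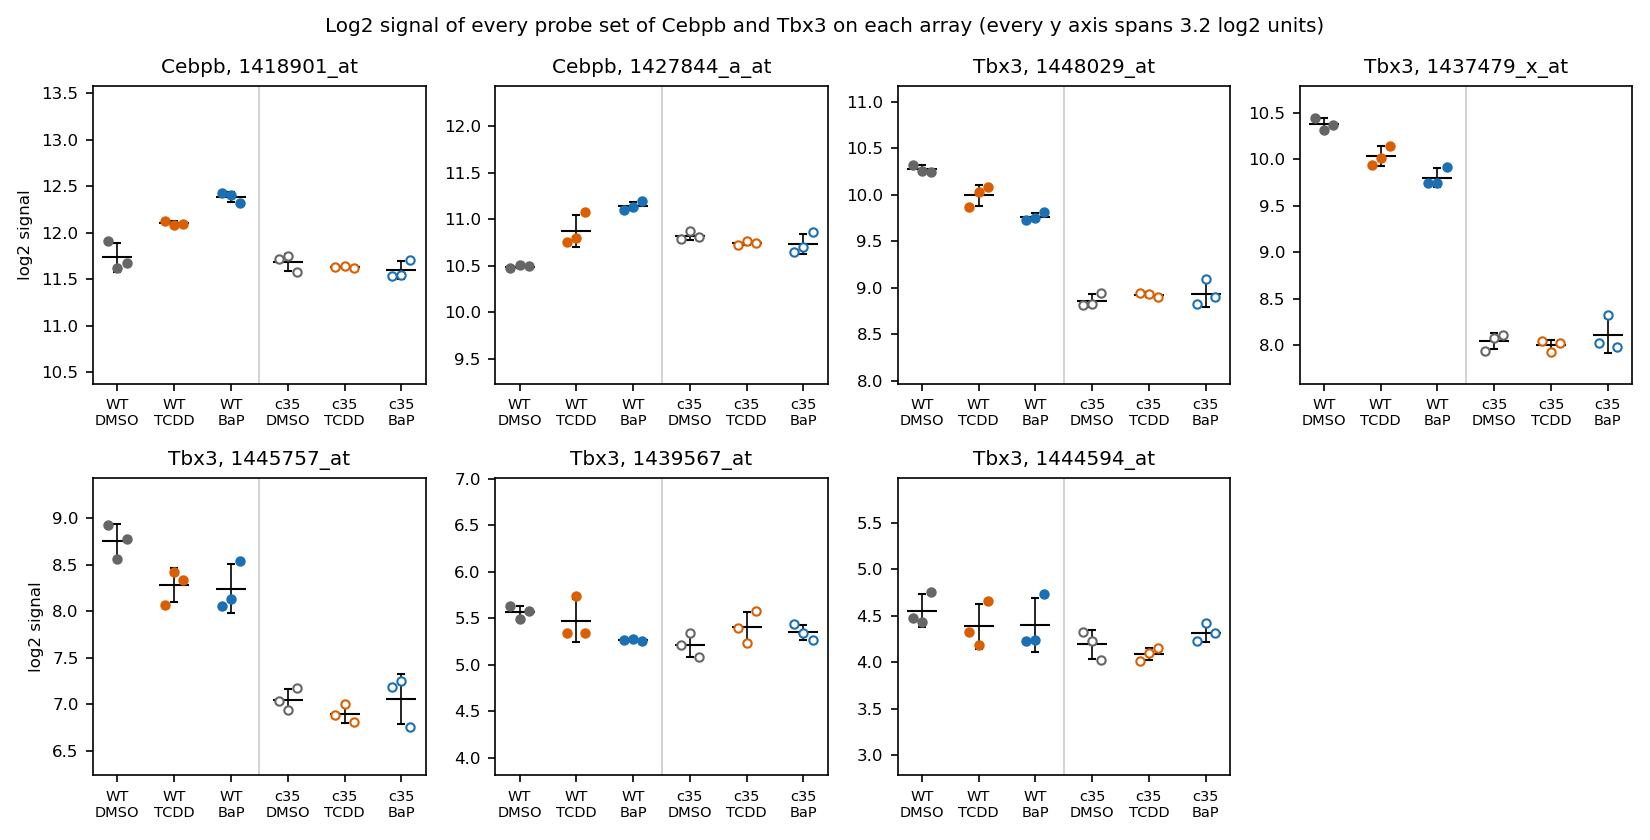
Log2 signal of both Cebpb and all 5 Tbx3 probe sets, 1 panel per probe set, on 3 arrays in each of 6 groups, with group mean and SD. The Cebpb probe sets were both highest with BaP in wild-type cells, and 3 of the Tbx3 probe sets, those above a log2 signal of 8 in wild-type cells, separated the lines on all 18 arrays.

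Hhex encodes a homeobox factor needed for the endoderm to form a liver bud. Its 1 probe set read 7.69, 7.74 and 7.60 in wild-type cells with DMSO, 7.50, 7.22 and 7.38 with TCDD, and 7.68, 7.32 and 7.35 with BaP. The c35 arrays read 6.52, 6.49 and 6.51, then 6.39, 6.57 and 6.51, then 6.58, 6.50 and 6.13, under the same treatments. No c35 array reached the lowest wild-type array. Hhex was higher in wild-type cells by 1.16 ± 0.11 (SE, n = 3 per group), or 2.24-fold, with DMSO (adjusted p = 5.48e-08, limma), by 0.88 ± 0.11 with TCDD (adjusted p = 2.41e-06) and by 1.05 ± 0.11 with BaP (adjusted p = 2.11e-07). Within the wild-type line the ligand differences were -0.30 ± 0.11 with TCDD, where the groups did not overlap (adjusted p = 0.255), and -0.22 ± 0.11 with BaP, where they did (adjusted p = 0.346). Neither was called, and the 95% intervals of the differences were -0.54 to -0.07 and -0.46 to 0.02.

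The control probe sets for actin differed between the lines too. The log2 signal of Actb at the 3′ end of the transcript exceeded that at the 5′ end by 0.73 to 1.38 on the wild-type arrays and by 0.30 to 0.53 on the c35 arrays, a measure of RNA integrity and labelling that did not overlap between the lines. With this difference as a covariate, the naive line difference was 1.001 for Hhex and 1.43 for Tbx3, and both stayed called under each treatment. Because the measure did not overlap between the lines, this fit cannot separate RNA integrity from the line.

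**Figure D3:**
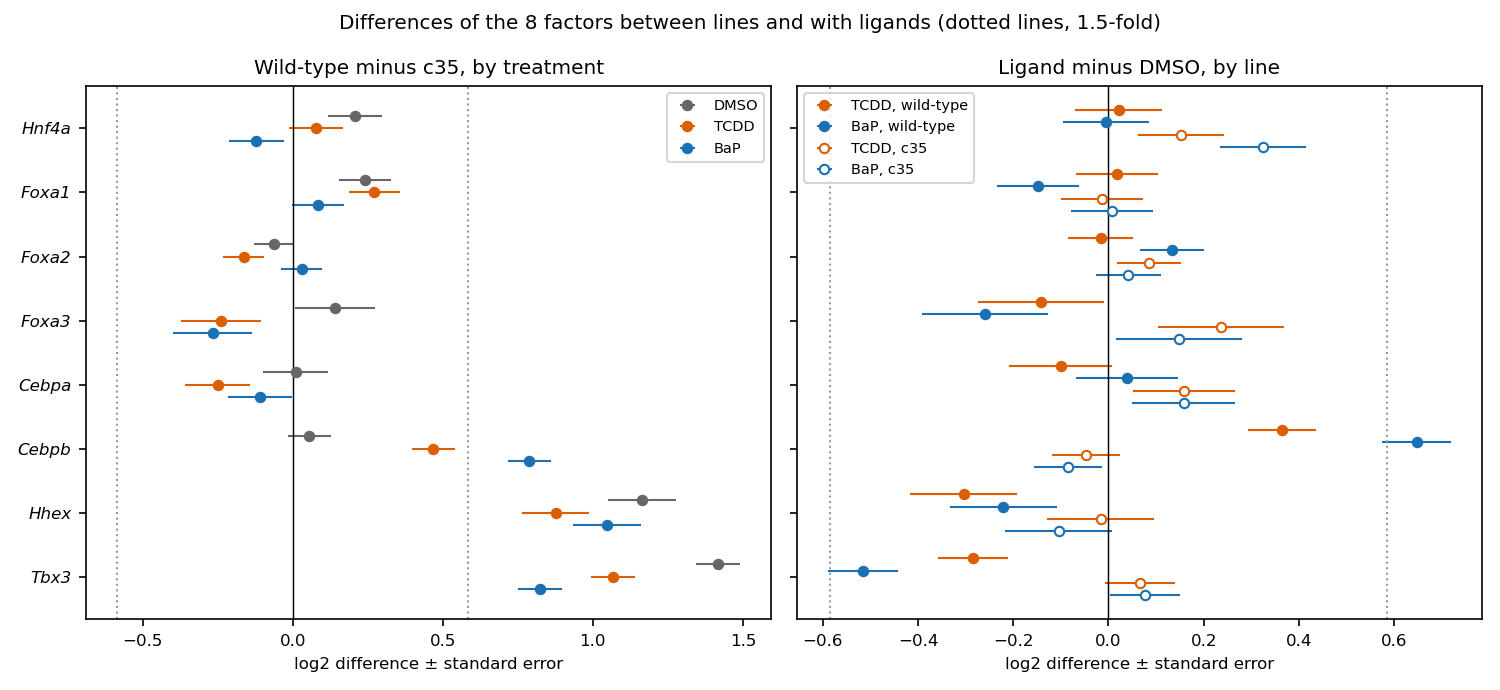
Log2 differences of the 8 factors with their standard errors, left for wild-type minus c35 under each treatment and right for each ligand minus DMSO in each line. Dotted lines mark 1.5-fold. Only Tbx3 and Hhex exceeded 1.5-fold between the lines under all 3 treatments, and only Cebpb with BaP exceeded it for a ligand.

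Cebpb was the 1 factor of the 8 called with a ligand. Its log2 signal in wild-type cells was 11.91, 11.63 and 11.67 with DMSO, 12.13, 12.09 and 12.09 with TCDD, and 12.43, 12.41 and 12.32 with BaP. In c35 cells it was 11.72, 11.75 and 11.58, then 11.64, 11.65 and 11.62, then 11.53, 11.55 and 11.71. The wild-type groups did not overlap, with BaP highest, while each c35 group with a ligand overlapped with the c35 DMSO arrays.

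With BaP, 1 of the 8 factors was called in wild-type cells, against 1.32% of all genes in either direction. Cebpb rose by 0.65 ± 0.07 (SE, n = 3 per group), or 1.57-fold (adjusted p = 9.97e-06, limma). With TCDD 0 of the 8 were called, against 0.379% of all genes, while 3 of the 8 factors and 2597 of the 18193 genes had an unadjusted p below 0.05. Cebpb differed there by 0.36 ± 0.07, or 1.29-fold, with an adjusted p of 0.0169, under the minimum change. At an adjusted p alone with no minimum change, the counts were 1 of 8 with TCDD, Cebpb, against 1.03% of all genes, and 2 of 8 with BaP, Cebpb higher and Tbx3 lower, against 6.48%. Both ligand comparisons use the same 3 DMSO arrays.

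Compared directly in wild-type cells at these doses, TCDD and BaP differed in 0 of the 8 factors, against 0.258% of all genes, and 3 of the 8 factors and 2896 of the 18193 genes had an unadjusted p below 0.05. Cebpb came nearest, at -0.28 ± 0.07 for TCDD minus BaP (adjusted p = 0.0572, limma), with a 95% interval of -0.43 to -0.13. The corresponding interval for Tbx3 was 0.08 to 0.38.

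In c35 cells, where a call needed only an adjusted p below 0.1, 0 of the 8 factors were called with TCDD and 0 with BaP, against 0% of all genes in each. The unadjusted p fell below 0.05 for 0 and 1 of the 8 factors, and for 939 and 643 of the 18193 genes (limma). Cebpb differed by -0.05 ± 0.07 with TCDD and -0.09 ± 0.07 with BaP. The 1 factor was Hnf4a, at 6.33, 6.51 and 6.37 with BaP against 5.93, 6.17 and 6.14 with DMSO, a difference of 0.32 ± 0.09 (adjusted p = 0.9998).

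The response to BaP differed between the lines for 2 of the 8 factors, against 1.34% of all genes, and the response to TCDD for 0 of 8, against 0.28%. For TCDD, 2 of the 8 factors and 1438 of the 18193 genes had an unadjusted p below 0.05. For Cebpb the BaP response in wild-type cells exceeded that in c35 by 0.73 ± 0.10 (adjusted p = 0.000368, limma), and by 0.74 ± 0.10 on its other probe set (adjusted p = 0.0004). For Tbx3 the difference was -0.59 ± 0.10 (adjusted p = 0.00339), just past the 1.5-fold minimum and towards lower values in the wild-type line. That call was lost to the minimum, though not to the adjusted p, when any of 6 single arrays was left out: wild-type DMSO replicate 1, wild-type BaP replicates 1 and 2, c35 DMSO replicates 1 and 2, or c35 BaP replicate 2. The values were then between -0.58 and -0.52. The Tbx3 probe set 1437479_x_at gave -0.64 ± 0.12 (adjusted p = 0.00723), and the other 3 were not called.

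The other probe set of Cebpb, 1427844_a_at, moved in the same direction with each ligand in wild-type cells, but differed from the first between the lines. In wild-type cells it read 10.47, 10.50 and 10.49 with DMSO, 10.76, 10.79 and 11.07 with TCDD, and 11.10, 11.13 and 11.19 with BaP. In c35 it read 10.79, 10.87 and 10.80 with DMSO and between 10.64 and 10.86 with either ligand. It rose by 0.65 ± 0.07 with BaP in wild-type cells (adjusted p = 1.16e-05, limma). In naive cells it read lower in the wild-type line, at -0.33 ± 0.07, under the minimum change, with no overlap (adjusted p = 0.00112), where the brighter probe set gave 0.06 ± 0.07 (adjusted p = 0.614). With BaP in both lines the wild-type excess was 0.79 ± 0.07 on the brighter probe set, which was called (adjusted p = 1.97e-08), and 0.41 ± 0.07 on the other, which was not. The naive level of Cebpb relative to c35 therefore had no direction common to both probe sets.

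Cebpb is a gene of 1518 bases on chromosome 2 (GRCm38.p6, 167688915 to 167690432, plus strand). The window around its start, from 250 bases before to 50 after, is shown because Cebpb was the factor that rose with a ligand and because AHR binds DNA at sites with the core GCGTG. Capitals mark the match to GCGTG, searched on both strands (CACGC on the other). The sequence is from RefSeq, chr2:167688665-167688964, plus strand.
Cebpb: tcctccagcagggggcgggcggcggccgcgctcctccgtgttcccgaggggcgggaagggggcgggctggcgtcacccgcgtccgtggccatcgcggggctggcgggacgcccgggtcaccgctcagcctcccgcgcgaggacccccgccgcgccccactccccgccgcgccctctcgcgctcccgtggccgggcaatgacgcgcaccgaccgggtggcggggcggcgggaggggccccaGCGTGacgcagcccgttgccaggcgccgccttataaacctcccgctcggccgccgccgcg

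The match ran from position -10 to -6, counted from the start. It overlapped a match to TGACG, a core of the cyclic AMP response element (CGTCA on the other strand), at positions -7 to -3, and 2 more TGACG matches stood at -180 to -176 on the other strand and at -53 to -49. RefSeq windows were found for 7 of the 8 factors, 10 windows in all. GCGTG was found in 5 of them, the single windows of Cebpb and Foxa3 and all 3 of Foxa2, and in 32.4% of the 32851 windows of the table. TGACG was found in 2, those of Cebpb and the farthest upstream of Foxa2, and in 20.8% of all windows. TATAAA, the letters of the TATA box core, was searched on the gene's own strand and found in 3 windows, before the start site in Foxa3 and Cebpa and after it in Cebpb, and in 8.32% of all windows. The windows of Hhex, Foxa1, Cebpa and both of Hnf4a held neither GCGTG nor TGACG. Foxa2 and Foxa3, with GCGTG in their windows, were not called with either ligand, and Foxa3 had a signal below the array medians. Whether AHR binds at any of these matches was not tested here, where only RNA was measured. The study separately mapped AHR binding with a promoter array in these cell lines, and those values were not used. Tbx3 lies on chromosome 5 (119670534 to 119684724).

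The forkhead factors divided by signal. Foxa2, the earliest of them in the endoderm, lay between 9.04 and 9.36 on all 18 arrays, and its group means between 9.15 and 9.32. Its naive line difference was -0.06 ± 0.07 (SE), with a 95% interval of -0.20 to 0.08. Foxa1, which binds the same sites, read 8.53, 8.67 and 8.67 in naive wild-type cells and 8.33, 8.33 and 8.50 in naive c35 cells. The difference of 0.24 ± 0.09 (adjusted p = 0.0354, limma) and that of 0.27 ± 0.09 with TCDD (adjusted p = 0.017) were under the minimum change, and with BaP it was 0.08 ± 0.09 (adjusted p = 0.507). Foxa3, which is active in the adult liver, had group means between 4.09 and 4.45, below the median of every array, and overlapped between the naive lines.

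Hnf4a and Cebpa, the factors of the differentiated hepatocyte, lay close to the array medians. Cebpa had group means between 5.76 and 6.01 and a naive line difference of 0.01 ± 0.11 (95% interval -0.21 to 0.23). Hnf4a had group means between 6.08 and 6.41 on its brightest probe set, with 6.27, 6.29 and 6.30 in naive wild-type cells against 5.93, 6.17 and 6.14 in c35, a difference of 0.21 ± 0.09 (adjusted p = 0.0851, limma). Its other probe sets gave naive differences of 0.00, 0.09 and -0.18, none called, and group means between 2.62 and 5.78. A level this near the bulk of the array cannot be told apart from no expression in these values, which carry no detection call.

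Across the 18 arrays the genes whose signals ran closest to Cebpb were Rnf183 (Pearson r = 0.97), Bmf, a proapoptotic BH3-only gene (0.97), and Hbp1, a transcriptional repressor (0.97). Closest to Tbx3 were Nudt3 (0.99), Tcf4, a helix-loop-helix factor (0.99), and Klhl23 (0.98), and closest to Hhex were Slc35f2 (0.98), P4ha2 (0.98) and Stat5b (0.97), the growth hormone signal transducer. For Tbx3 and Hhex the arrays form 2 clusters, the lines, so that these coefficients largely describe a shared step between the lines. For Cebpb the wild-type groups with TCDD and BaP averaged 12.10 and 12.38, and the remaining groups between 11.60 and 11.74. Its coefficients therefore largely describe shared steps between groups. For Foxa1 the best value was 0.90, for Cebpa 0.85, for Foxa2 0.83, for Foxa3 0.79 and for Hnf4a 0.76.

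**Figure D4:**
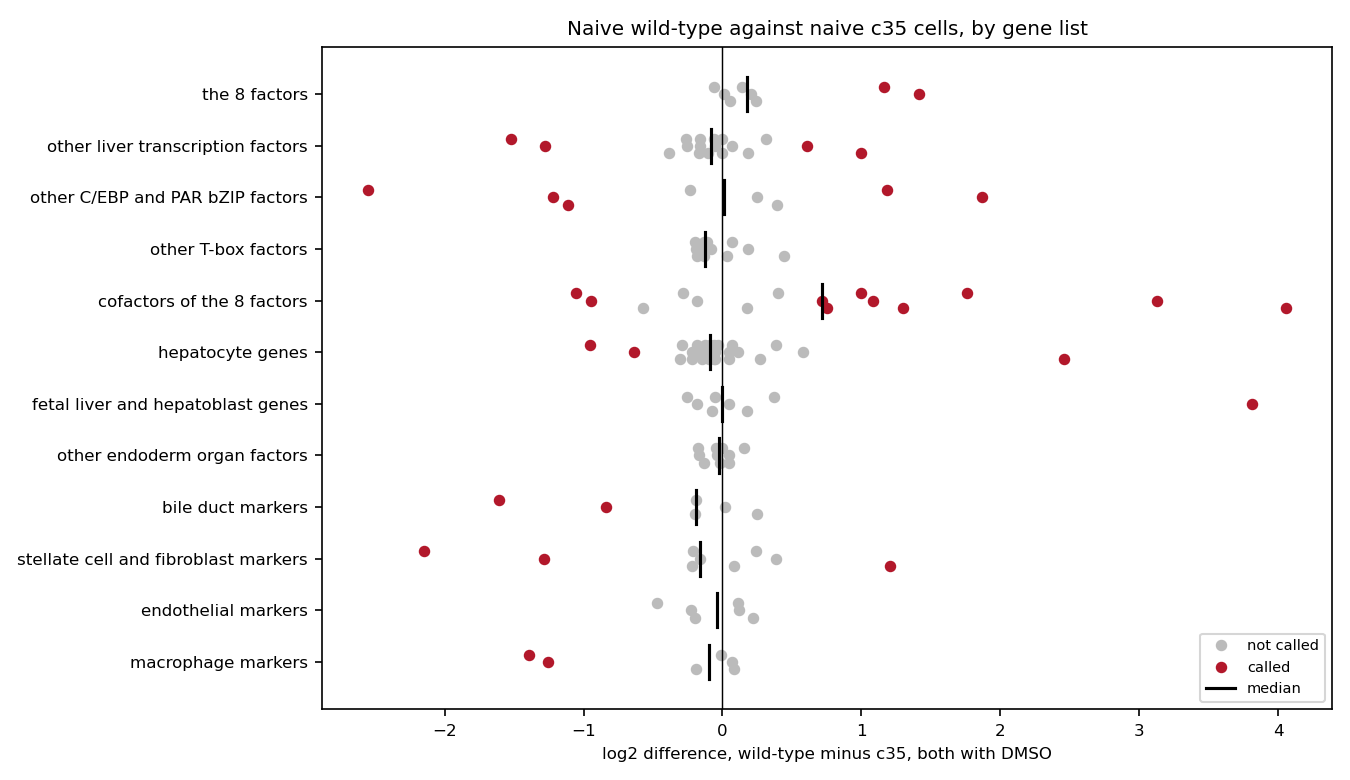
Log2 difference between naive wild-type and naive c35 cells for each measured gene of 12 lists, 1 row per list, with called genes in red, other genes in grey and the list median as a black bar. The cofactor list has its median at 0.72, and the remaining medians lie between -0.19 and 0.17.

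Other genes of the liver program were set beside the factors, with all 18193 genes as the background for each list. Between the naive lines 7.52% of all genes were called higher in the wild-type line and 6.52% lower, and 8152 had an unadjusted p below 0.05 (limma). Of 20 further liver transcription factors, 18 were measured, of which 2 were called higher and 2 lower, and the median difference was -0.09. Zbtb20, a repressor of Afp in the adult liver, was higher by 0.997, and Onecut2, a homeodomain factor of liver development, by 0.61. Xbp1, a factor of the secretory pathway, and Nr1h4, the bile acid receptor, were lower, with differences of -1.52 and -1.27. None of the 18 was called with a ligand in wild-type cells, with 3 at an unadjusted p below 0.05 with TCDD and 4 with BaP, beside 2597 and 3489 of the 18193 genes (limma).

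The leucine zipper relatives of Cebpa and Cebpb were called in both directions. Of 9 listed, 8 were measured, of which 2 were called higher and 3 lower in the wild-type line, and the median was 0.01. Cebpd, the acute-phase relative of Cebpb, averaged 5.64 in naive wild-type and 8.19 in naive c35 cells, a difference of -2.55 (adjusted p = 2.76e-10, limma). Ddit3, which encodes CHOP, a stress-induced partner that blocks C/EBP binding, averaged 9.91 against 8.05, a difference of 1.87 (adjusted p = 6.40e-14). Hlf was higher by 1.19, while Dbp and Nfil3, which bind the same sites as Hlf, were lower, at -1.22 and -1.11. With TCDD, Hlf was the 1 gene of this list called, at 0.74 ± 0.15 (adjusted p = 0.0171).

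Among 13 other T-box genes, 12 were measured, and 0 were called higher and 0 lower between the naive lines, with 1 at an unadjusted p below 0.05 (limma) and a median of -0.12.

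Of 18 symbols listed for cofactors of the 8 factors, 15 were measured. Of these, 8 were called higher and 2 lower in the naive wild-type line, against 7.52% and 6.52% of all genes. The median was 0.72 beside -0.03 for all genes. Trib2, a pseudokinase that directs C/EBPα to degradation, averaged 8.46 in naive wild-type and 4.40 in naive c35 cells, a difference of 4.06 (adjusted p = 1.70e-12, limma), while its relative Trib1 was lower, at -1.06. Ppargc1a, the coactivator of HNF4A in gluconeogenesis, was higher by 3.13. Tle4, a Groucho corepressor of the kind HHEX recruits, was higher by 1.76, and Tle5, a truncated relative, was lower, at -0.95. The general coactivators Ncoa1, Ncoa2, Ncoa3 and Ep300 and the corepressor Nrip1 were higher by 0.72 to 1.30.

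Of 30 symbols listed for hepatocyte genes of the kind these factors drive, 27 were measured. Of these, 1 was called higher and 2 lower in the naive wild-type line, against 7.52% and 6.52% of all genes. The median was -0.09. Alb, encoding albumin, averaged 13.64 in naive wild-type and 11.18 in naive c35 cells, a difference of 2.46 (adjusted p = 3.60e-14, limma), and Fgb and Rbp4 were lower, at -0.95 and -0.64. With BaP, Rbp4, the retinol carrier, rose by 0.66 ± 0.07 in wild-type cells (adjusted p = 4.50e-06), the 1 gene of this list called with a ligand. In naive wild-type cells 7 of the 27 lay above the array median, and in c35 6 of 27. Ttr and Apoa1, abundant products of hepatocytes, averaged 6.73 and 5.85 in naive wild-type cells.

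Fetal liver genes were read as a check of the label, a liver tumor line. Afp, the fetal counterpart of albumin, averaged 12.11 and 11.93 in the naive lines and was not called. Of 8 measured genes of 9 listed only Gpc3, a glypican of hepatoblasts and liver tumors, was called, higher in wild-type cells by 3.81 (adjusted p = 2.55e-14, limma). In each naive line 6 of the 8 lay above the array median. Among the 6, Igf2, at 6.07 in wild-type and 5.70 in c35 cells, and Hmga2, at 5.92 and 5.99, lay close to it. Lin28b, at 2.12 in wild-type and 2.18 in c35 cells, and Dlk1, at 5.13 and 5.32, lay below it. Factors of other endoderm organs, 10 measured of 10, gave 0 calls and 1 gene above the array median in each line.

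Markers of other liver cells moved with the line in part. In naive wild-type against c35 cells, 0 of 6 measured bile duct markers were higher and 2 lower, Krt19 at -1.61 and Krt7 at -0.84. Of 9 stellate cell and fibroblast markers, 1 was higher, Pdgfrb at 1.20, and 2 lower, Acta2 at -2.15 and Col3a1 at -1.29. In naive wild-type cells 6 of the 9 lay above the array median, and in naive c35 cells 7. Among them Dcn, at 14.07 and 13.68, and Col1a1, at 10.55 and 10.31, had high signals in both naive lines and were not called. Of 6 macrophage markers, 0 were higher and 2 lower, Cd68 at -1.39 and Csf1r at -1.25, whose signals averaged 7.30 and 10.73 in naive wild-type and 8.70 and 11.98 in naive c35 cells. The defining markers Adgre1, at 4.94 and 4.87, and Ptprc, at 2.93 and 2.85, lay below the array medians. In each naive line 3 of the 6 macrophage markers lay above the median, Cd68, Csf1r and Clec4f, the last at 5.995 and 6.183. Endothelial markers, 6 measured, gave 0 calls in naive cells, with 2 at an unadjusted p below 0.05 (limma), and Pecam1 averaged 4.15 and 4.38. The mean log2 signal over each list lay, on the wild-type and c35 arrays, at 6.30 to 6.46 and 6.80 to 6.98 for bile duct, 8.12 to 8.27 and 8.35 to 8.44 for stellate cells, 5.65 to 5.88 and 6.20 to 6.28 for macrophages and 4.65 to 4.78 and 4.78 to 4.94 for endothelium. Their part in the line differences of Tbx3 and Hhex was not tested.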

How the data were processed

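The authors deposited log2 signals of 18 Affymetrix Mouse Genome arrays in a single matrix. The submitters' processing notes name RMA (robust multiarray average) and no version. RMA subtracts background, equalizes the arrays' distributions and combines probes, which compresses the changes of dim probe sets. The deposited values were used without further normalization and carry no detection calls, so depth has no counterpart here beyond the 3 arrays per group. Of 45101 probe sets, 64 controls were left out. Of the 45037 tested, 34945 had 1 symbol in the platform annotation, 932 had several and 9160 none, and 34741 matched a RefSeq gene number.

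All arrays entered 1 fit with 6 group means (limma 3.58.1 in R 4.3.3, matrices read with the data.table package). The moderated test used eBayes with an intensity trend and the Benjamini-Hochberg adjustment across all probe sets tested. The script was tested on simulated data. The 10 comparisons were the lines under each treatment, TCDD or BaP against DMSO within either line, the ligands against each other in the wild-type line, and the difference between lines in each response. Calls needed more than 1.5-fold at an adjusted p below 0.05. Ligands in c35 needed only an adjusted p below 0.1. Genes named are the 8 factors, the called genes of largest change or the defining genes of 11 other lists, and the 3 genes most correlated with each factor. Cyp1a1 and Ahr are named as checks of the labels. The factors and lists were chosen with earlier results of these data known. A further list is not reported here. Alternatives changed the prior trend, normalization, dim filter, summary of probe sets, array weights, Actb covariate, replicate block, minimum change and arrays fitted. Promoter windows were read from a RefSeq table (GRCm38.p6), and figures were drawn with matplotlib 3.10.9.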

Additional observations from a re-analysis of the deposited data

Results flagged for a closer look

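Among the 8 factors and the measured genes of the 11 other lists, 5 genes had a response to a ligand that differed between wild-type and c35 cells by the test of that difference (limma, Benjamini-Hochberg over all probe sets). Over all 18193 genes, 51, or 0.28%, were called for the difference in TCDD response and 243, or 1.34%, for that in BaP response. The lists were chosen with earlier results of these data known, so the 5 genes were not set against these shares. For BaP, the wild-type response exceeded that of c35 by 0.73 for Cebpb (adjusted p = 0.000368) and by 0.75 for Rbp4 (adjusted p = 0.0002) on the log2 scale. The difference had the opposite sign, lower in wild-type cells, for Tbx3 at -0.59 (adjusted p = 0.00339) and for Tle4 at -0.77 (adjusted p = 0.00313). For TCDD, the wild-type response of Hlf exceeded that of c35 by 1.22 (adjusted p = 0.00805). That value joins a rise of 0.74 in wild-type cells with a difference of -0.48 ± 0.15 (SE) in c35, which was not called.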

How the results depend on the processing

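The count of called factors was the same under most alternatives. With no minimum change it became 3 of 8 instead of 2 between the naive lines, with Foxa1 at 0.24 added, against 6888 of the 18193 genes. Between the lines with TCDD it became 4 instead of 2, with Foxa1 and Cebpb added, against 7070 of the 18193 genes. It became 1 with TCDD in wild-type cells, against 1.03% of all genes, and 2 with BaP in wild-type cells, against 6.48%. For the difference in BaP response it became 1 with the average over the probe sets of each gene and with array weights, and 1 to 2 when single arrays were left out. Each time the loss was Tbx3, at -0.50 with the mean of probe sets, -0.55 with array weights and -0.52 to -0.58 without 1 of the arrays named above, with the adjusted p still below 0.05. Leaving out single arrays moved no other count. Foxa3 gave no value when only probe sets above the median signal were tested. Of 1366 values of single factors under alternatives, 0 called values reversed, 39 uncalled values changed sign, among them Cebpb between the naive lines at -0.11 with the Actb covariate and -0.14 with the mean of its probe sets, 8 lost their call and 5 gained one.

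Same-numbered replicates did not pair the arrays, with correlations of their deviations between -0.26 and 0.22. With the replicate number as a block, 2, 2 and 3 factors were called between the lines with DMSO, TCDD and BaP, 1 with BaP in wild-type cells and 2 for the difference in BaP response, and no call changed. Over all genes, no minimum change gave 1178 calls with BaP and 187 with TCDD in wild-type cells instead of 240 and 69, 303 instead of 47 between the ligands, 421 instead of 243 for the difference in BaP response, and 6888, 7070 and 7181 instead of 2555, 2724 and 2876 between the lines. Fitting only the compared arrays gave 43 calls with TCDD, the mean of probe sets 31 between the ligands, and array weights 88 instead of 51 for the difference in TCDD response. With 3 arrays per group, and signals near the array medians for Hnf4a and Cebpa and below them for Foxa3, small changes of these factors could not be resolved.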
